A study of Mus musculus with 67 samples.

Results

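Trophoblast giant cells (TGC) and extra-embryonic ectoderm (ExE) are the terminally differentiated and the proliferating branches of the trophoblast, the lineage that builds the placenta. The comparison takes the 4 TGC libraries and the 3 ExE libraries of wild-type mouse embryos at embryonic day 5.5 (E5.5) that had developed in three-dimensional culture in Matrigel, 7 of the 67 libraries in all. They were chosen by their labels alone, and all 15567 genes of sufficient level were compared. The series follows the lineages of the embryo around implantation, and its design names a line that carries EGFP under the Pdgfra promoter, which marks primitive endoderm and not trophoblast. Each library came from a small pool of dissociated cells that had been amplified before sequencing. The protocols speak of 3 biological replicates in a group, while cultured TGC has 4 libraries. They do not say whether libraries came from different embryos, so the p-values rest on spread between libraries, estimated per gene over all 67. Further groups used are wild-type TGC and ExE of E4.75 (3 libraries each, with culture not stated for them), ExE of E5.5 dissected from the decidua (in vivo, 2 libraries) and cultured visceral endoderm (VE) and epiblast of E5.5 (3 libraries each).

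Giant cells arise from the trophectoderm away from the inner cell mass and later from the ectoplacental cone. They leave the mitotic cycle, go on replicating their DNA in endocycles, invade the uterine lining, open maternal vessels and secrete hormones of the prolactin family. The extra-embryonic ectoderm lies over the epiblast and keeps the trophoblast stem cells, which depend on FGF from the epiblast through the receptor Fgfr2. In return it secretes Bmp4, and it supplies proprotein convertases that activate Nodal.

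Values are in TPM, transcripts scaled to a common total and corrected for transcript length, so a gene's share can move when a few transcripts take much of the total. Differences are TGC minus ExE of log2(TPM + 1), ± SE, with Benjamini-Hochberg adjusted p from limma over all genes tested. Calls needed an adjusted p below 0.05 together with a size of 1 or more on the log2 scale. Means are given ± SD (n = 4 for TGC, n = 3 for ExE). TGC libraries correlated with each other at r = 0.984 to 0.986 across genes, ExE libraries at 0.966 to 0.967, and TGC with ExE at 0.842 to 0.851. Between 9585 and 9701 genes reached 1 TPM in the TGC libraries, against 10933 to 11160 in the ExE libraries.

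In TGC, 977 genes (6.28%) were higher and 4909 (31.5%) were lower than in ExE, and 5614 of these 5886 genes had no overlap between the libraries of the groups. The split depended on the scaling. Prl3d1, Prl3d2 and Prl3d3 alone took 14.3% ± 0.865 of all TPM in TGC and 0.00615% ± 0.00131 in ExE, and the median difference of all genes tested was -0.51. When TPM were rescaled by the median ratio of genes above 0 in every library, which set that median to 0, 2097 genes were higher and 2262 lower, so that 48.1% of calls were higher in place of 16.6%. Quantile normalization gave 2048 higher and 2197 lower. All decreases are relative to the total of each library, and calls near 1 log2 unit, such as those of Ccne2 and Jun below, were lost with rescaling. With median-ratio rescaling, larger decreases lost their calls as well, among them those of Gmnn, Cenpa and Pcna below. In such pools, fewer cells of a type and less RNA per cell cannot be told apart.

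**Figure D1:**
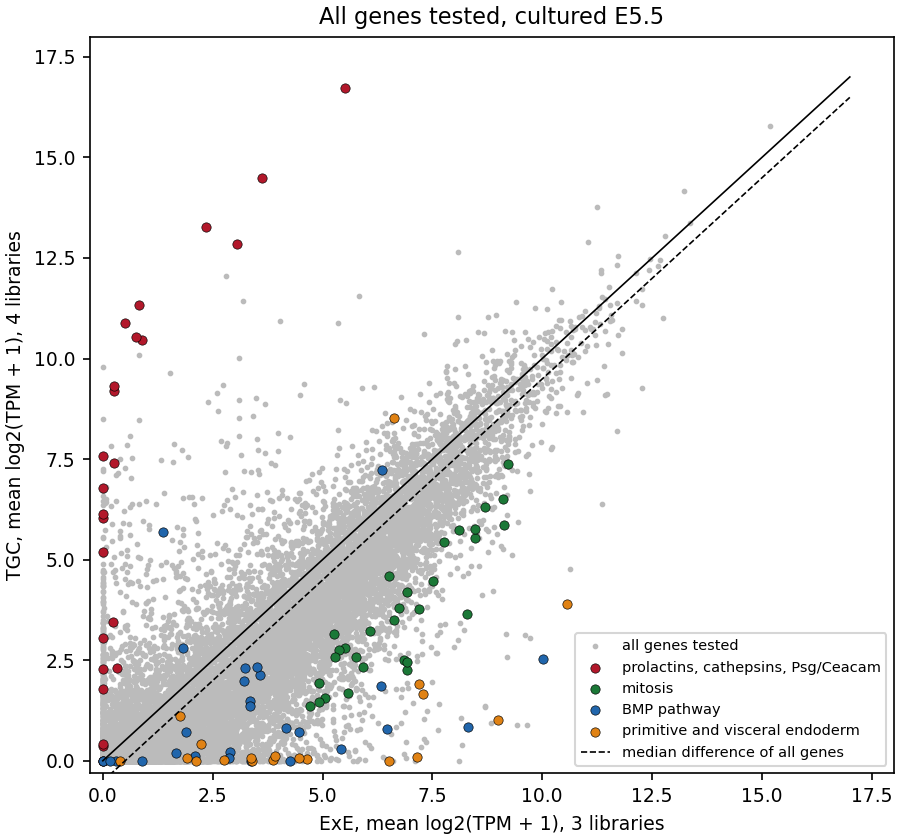
Mean log2(TPM + 1) of every gene tested in the 4 TGC libraries (vertical) against the 3 ExE libraries (horizontal), with gene groups coloured. The solid line marks equal values and the dashed line the median difference of all genes, -0.51. Placental prolactins, cathepsins and Psg/Ceacam genes lie along the upper left edge, and mitosis genes lie below both lines.

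The defining markers followed the labels. Prl3d1, placental lactogen I and the classic giant cell hormone (chromosome 13, 27094190 to 27100258, + strand, GRCm38), had 114777, 115076, 105772 and 101237 TPM in the 4 TGC libraries, against 34, 49.6 and 53.2 TPM in the 3 ExE libraries (log2 difference 11.22 ± 0.79, adjusted p = 1.3e-17). Its mean in TGC was above that of every other gene tested, and the groups did not overlap. The residual level in ExE lay in the range of other cultured tissues, with 50.9 ± 50.2 TPM in VE, 139 ± 54.6 TPM in epiblast and a mean of 40.6 TPM in in vivo ExE. Cts7, a placental cathepsin of giant cells (chromosome 13, 61352461 to 61358197, - strand), had 2818, 2732, 2536 and 2329 TPM in TGC, against 0.708, 1.0 and 0.61 TPM in ExE (log2 difference 10.52 ± 0.28, adjusted p = 5.4e-36). Bmp4, the signal from the ExE (chromosome 14, 46383520 to 46390669, - strand), ran the other way, at 1.82, 0.449, 0 and 1.5 TPM in TGC, against 299, 319.8 and 338 TPM in ExE (log2 difference -7.48 ± 0.57, adjusted p = 2.5e-16).

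Genes that mark trophoblast as a whole were high in both tissues. The transcription factors Gata3 and Tfap2c had 844 ± 142 and 585 ± 32.6 TPM in TGC, against 590.4 ± 55.9 and 344 ± 37.3 TPM in ExE, neither of them called. Krt18, a keratin of simple epithelia, had 4481 ± 164 TPM in TGC and 2605 ± 352 TPM in ExE, a significant difference below the minimum size (log2 difference 0.79 ± 0.14, adjusted p = 6.5e-06), and called against in vivo ExE at 2.23. Its partner Krt8 had 1412, 1581, 1757 and 1586 TPM in TGC, against 423, 418 and 386 TPM in ExE (log2 difference 1.95 ± 0.26, adjusted p = 6.7e-09).

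**Figure D2:**
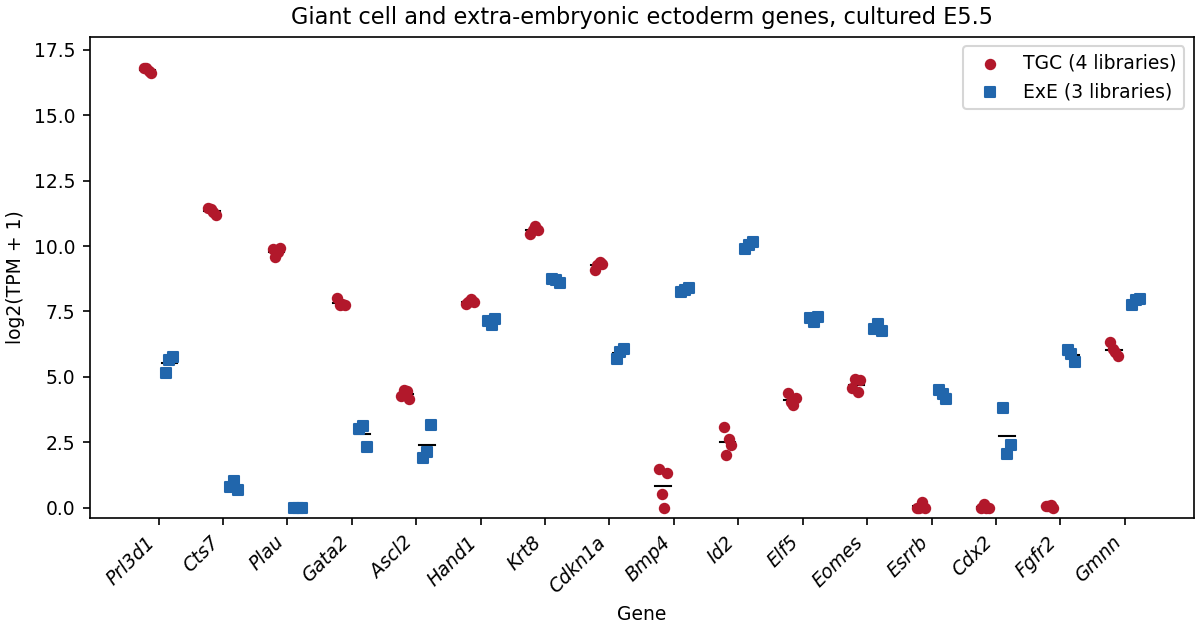
Level of 16 genes in each library, as log2(TPM + 1), with TGC left of ExE for every gene and bars at the group means. The libraries of the groups are separate for all 16 genes, including Hand1, whose difference of 0.75 was not called.

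The placental prolactin family, hormones encoded by a cluster of related genes on chromosome 13, rose as a group. Of its 25 members listed, 15 were tested, and 12 of these were higher in TGC and none lower, beside a share of 6.28% of all genes that were higher. A member could reach the level needed for testing in TGC libraries alone, which favours calls of higher. The median difference was 6.03, or 9.79 over the 8 members above 0 in both groups, and the counts were the same under both rescalings and against in vivo ExE, where 10.1% of all genes were higher and 23.8% lower in TGC. All 26 prolactin-family genes of the table summed to 151700 ± 9570 TPM in TGC and 70.02 ± 11.8 TPM in ExE. Prl3d2 had 23499.9, 24339, 22949 and 21995 TPM in TGC, against 8.74, 12.4 and 13.1 TPM in ExE (log2 difference 10.89 ± 0.52, adjusted p = 2.8e-24), and Prl3d3 had 9877 ± 935 TPM in TGC against 4.1 ± 0.461 TPM in ExE (log2 difference 10.92 ± 0.52, adjusted p = 2.0e-24). Prl3d1, Prl3d2 and Prl3d3 are close copies, whose coding sequences of 672 bases were 97.9% to 98.7% identical, so how reads were divided between them is uncertain and their sum is the firmer value. Prl7a1 and Prl5a1 shared only 53.5% and 55.4% of coding bases with Prl3d1 and can be told apart from it. Prl7a1 (chromosome 13, 27633366 to 27642493, - strand) had 8444, 7782, 7040.4 and 6594 TPM in TGC, against 9.56, 7.58 and 5.255 TPM in ExE (log2 difference 9.81 ± 0.43, adjusted p = 7.2e-26). Prl5a1 had 1639.5, 1567, 1418 and 1286 TPM in TGC, against 0.312, 1.11 and 0.709 TPM in ExE (log2 difference 9.78 ± 0.47, adjusted p = 3.4e-24). Prl2a1 averaged 167 ± 5.82 TPM in TGC and 0.198 ± 0.173 TPM in ExE. Prl4a1 had 219.5, 197, 179 and 174 TPM in TGC and was listed at 0 in every ExE library (adjusted p = 1.5e-38), as was Prl2c5, which had 77.7, 65.4, 63.6 and 53.2 TPM in TGC. Prl2c2, a proliferin later abundant in giant cells, was still low, at 8.57, 12.2, 9.28 and 9.62 TPM in TGC, against 0, 0 and 0.613 TPM in ExE (log2 difference 3.21 ± 0.20, adjusted p = 1.1e-19).

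The start regions of Prl3d1, Prl7a1 and Prl5a1, the most abundant prolactins apart from the copies of Prl3d1, and of Prl4a1, the next in level, are shown because these genes were called higher together. They run 5′ to 3′ from 250 bases before to 50 bases after the start site (RefSeq, GRCm38.p6), and capitals mark matches on either strand to a GATA motif (AGATA followed by A or G, or TGATA followed by A or G) or to the AP-1 motif TGACTCA. These are the motifs of the factor families of Gata2 and Fosl1, described further on.
Prl3d1, chr13:27093939-27094238, + strand: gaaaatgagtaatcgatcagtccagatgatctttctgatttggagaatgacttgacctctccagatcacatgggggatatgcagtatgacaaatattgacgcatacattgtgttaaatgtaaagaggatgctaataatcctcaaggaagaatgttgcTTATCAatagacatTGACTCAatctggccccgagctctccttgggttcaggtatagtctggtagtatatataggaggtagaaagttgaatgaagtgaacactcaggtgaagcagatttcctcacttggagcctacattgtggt
Prl7a1, chr13:27642444-27642743, - strand: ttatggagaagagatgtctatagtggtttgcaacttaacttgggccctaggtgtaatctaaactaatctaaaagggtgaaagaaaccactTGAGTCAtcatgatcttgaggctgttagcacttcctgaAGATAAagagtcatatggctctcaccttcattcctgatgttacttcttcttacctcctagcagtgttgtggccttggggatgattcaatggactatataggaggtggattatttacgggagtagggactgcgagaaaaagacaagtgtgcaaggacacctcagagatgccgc
Prl5a1, chr13:28142234-28142533, + strand: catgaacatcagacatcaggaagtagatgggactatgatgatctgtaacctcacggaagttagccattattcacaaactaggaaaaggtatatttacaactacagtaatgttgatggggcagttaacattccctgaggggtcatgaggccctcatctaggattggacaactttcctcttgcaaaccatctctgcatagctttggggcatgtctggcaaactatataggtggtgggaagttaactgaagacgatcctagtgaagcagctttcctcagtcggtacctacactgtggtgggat
Prl4a1, chr13:28015962-28016261, + strand: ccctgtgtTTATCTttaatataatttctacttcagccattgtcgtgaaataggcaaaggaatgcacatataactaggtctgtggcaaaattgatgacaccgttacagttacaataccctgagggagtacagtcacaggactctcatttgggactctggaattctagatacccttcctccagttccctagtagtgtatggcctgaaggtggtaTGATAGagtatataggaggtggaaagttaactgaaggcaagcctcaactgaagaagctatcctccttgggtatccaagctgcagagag
In Prl3d1 the GATA match began 93 bases and the AP-1 match 79 bases before the start site, and Prl3d2 and Prl3d3 held the same pair at the same spacing, 110 and 96 bases before the start in Prl3d2 and 114 and 100 bases before it in Prl3d3. Prl7a1 held a GATA match 122 bases and an AP-1 match 160 bases before its start, and Prl4a1 held GATA matches at 242 and 38 bases with no AP-1 match. Prl5a1, Prl2a1, Cts7 and Bmp4 held neither. Of 12 start regions, which belong to 11 called prolactins, 10 held the GATA motif and 4 held both motifs. Over the start regions of all genes tested, 19.8% held the GATA motif, 3.99% the AP-1 motif and 0.999% both, and over all 32851 start regions 29.8%, 5.2% and 1.84%. Among genes higher in TGC the shares were 20.5%, 6.81% and 2.14%, and among genes lower in TGC they were 18.2%, 3.53% and 0.791%. The prolactins are related by descent, so their shared letters are not independent, and a match is not a measured binding site.

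Other secreted families of the giant cell rose with the prolactins. Of 9 placental cathepsins listed, 4 were tested, and 3 of these were higher in TGC. Cts8, also on chromosome 13 and 72.5% identical to Cts7 over the coding sequence, had 625, 671, 569 and 502 TPM in TGC, against 0.258, 0.0781 and 0.224 TPM in ExE (log2 difference 8.96 ± 0.19, adjusted p = 1.5e-39). Ctsll3 had 105, 123, 103 and 106 TPM in TGC and was listed at 0 in every ExE library. All 6 pregnancy-specific glycoproteins and related Ceacam genes tested, of 19 listed, were higher, with a median difference of 7.59, or 9.55 over the 3 members above 0 in both groups. In both families, too, a member could reach the level needed for testing in TGC libraries alone. Psg22, an immunoglobulin-like glycoprotein secreted by giant cells, had 2076, 1971, 1737 and 1744 TPM in TGC, against 0.217, 0.532 and 0.52 TPM in ExE (log2 difference 10.37 ± 0.23, adjusted p = 2.0e-39). Psg29 and Ceacam15 had 1402 ± 117 and 641 ± 35.2 TPM in TGC, against 1.05 ± 1.17 and 0.201 ± 0.0712 TPM in ExE. None of these genes overlapped between the groups.

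Genes first studied in the ectoplacental cone and spongiotrophoblast split. Of 12 tested, 6 (50%) were higher and 3 (25%) lower, beside 6.28% and 31.5% of all genes. Plac8 had 4455, 4154, 4075 and 4165 TPM in TGC, against 5.7, 10.9 and 3.25 TPM in ExE (log2 difference 9.24 ± 0.39, adjusted p = 1.2e-26). Plac1, an X-linked gene of placental trophoblast, had 2809.8, 2795, 2623 and 2754 TPM in TGC, against 4.51, 9.43 and 12.2 TPM in ExE (log2 difference 8.23 ± 0.48, adjusted p = 8.5e-21). Sct, which encodes the hormone secretin, had 649 ± 74.3 TPM in TGC and 6.49 ± 4.67 TPM in ExE (log2 difference 6.60 ± 0.56, adjusted p = 9.9e-15), and Egfr, the EGF receptor, had 22 ± 2.26 TPM in TGC and 3.11 ± 2.05 TPM in ExE (log2 difference 2.61 ± 0.32, adjusted p = 1.2e-09). The gap junction gene Gjb5 and the transcriptional coregulator Cited1 were lower, at 17.8 ± 2.98 and 0.447 ± 0.524 TPM in TGC, against 135 ± 10.9 and 162 ± 5.11 TPM in ExE. Phlda2, an imprinted gene that restrains placental growth, had 284 ± 31.4 TPM in TGC and 337 ± 21.3 TPM in ExE and was not called, but it averaged 1932 TPM in in vivo ExE and was lower against that group (log2 difference -2.77, adjusted p = 1.1e-09). No gene of a list of 13 for syncytiotrophoblast and labyrinth, later placental tissues, was higher in TGC. In that list 6 (46.2%) were lower, beside 31.5% of all genes, although rescaling by the median ratio left 2 higher and 2 lower.

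Most genes tied to the contact of giant cells with maternal blood were higher in TGC. Of 15 vascular and haemostatic genes tested, 9 (60%) were higher and 2 (13.3%) lower, beside 6.28% and 31.5% of all genes. Plau, the urokinase that activates plasmin, had 958, 761, 869.9 and 964 TPM in TGC and was listed at 0 in all 3 ExE libraries (adjusted p = 9.3e-33). Its receptor Plaur went the other way, with 32.2, 35.9, 40.3 and 40.8 TPM in TGC, against 580.4, 495 and 572 TPM in ExE (log2 difference -3.85 ± 0.46, adjusted p = 4.6e-10). Tfpi, an inhibitor of the tissue factor pathway, had 3430.1, 3302, 2853 and 2519 TPM in TGC, against 53.5, 49.4 and 67.2 TPM in ExE (log2 difference 5.71 ± 0.47, adjusted p = 2.9e-15). Thbd, thrombomodulin, had 174, 139, 124 and 135 TPM in TGC, against 0.0877, 0.828 and 0.0449 TPM in ExE (log2 difference 6.81 ± 0.24, adjusted p = 2.2e-30). Procr, the protein C receptor, had 143 ± 7.19 TPM in TGC and 30.6 ± 10.4 TPM in ExE (log2 difference 2.25 ± 0.45, adjusted p = 4.0e-05), and Tfpi2 had 97.1, 92, 80.5 and 78.4 TPM in TGC and was listed at 0 in ExE. Pecam1, an adhesion molecule of vessel lining, had 279, 282, 264 and 244 TPM in TGC, against 0, 1.67 and 0.349 TPM in ExE (log2 difference 7.45 ± 0.44, adjusted p = 9.3e-21). Adm, the vasodilator adrenomedullin, had 96.5, 109, 94.2 and 114 TPM in TGC and was listed at 0 in ExE. Among ligands, the placental growth factor Pgf had 87.8 ± 10.5 TPM in TGC and 1.22 ± 1.27 TPM in ExE (log2 difference 5.47 ± 0.48, adjusted p = 3.7e-14), while Vegfa had 3.26 ± 0.411 TPM in TGC and 2.2 ± 0.886 TPM in ExE and was not called. Flt1, a receptor for both, was listed at 0 in every TGC library and had 1.45, 2.62 and 3.22 TPM in ExE (adjusted p = 3.7e-04), a call lost against in vivo ExE (adjusted p = 0.14).

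Integrins and matrix receptors were mixed, with 6 of 20 (30%) higher and 4 (20%) lower, beside 6.28% and 31.5% of all genes. After median-ratio rescaling 8 were higher and 1 lower. Itga2, a collagen receptor subunit, had 44.9, 38, 32.1 and 32.4 TPM in TGC, against 0.0247, 0 and 0 TPM in ExE (log2 difference 5.22 ± 0.13, adjusted p = 7.3e-37). Itgb3 and Itgav, the subunits of a vitronectin receptor, had 48.1 ± 1.58 and 46.6 ± 6.74 TPM in TGC, against 0.655 ± 0.809 and 9.01 ± 3.16 TPM in ExE, both higher, although Itgav fell short of the minimum size against in vivo ExE at 0.97. The collagen receptor subunit Itga1 and the proteoglycan Sdc1 were also higher (12.9 ± 2.32 and 209 ± 13.3 TPM in TGC, against 1.59 ± 2.04 and 15 ± 3.3 TPM in ExE). Mmp9, a gelatinase used by invading trophoblast, had 56.5, 62.9, 66 and 50.4 TPM in TGC, against 0, 2.46 and 0 TPM in ExE (log2 difference 5.30 ± 0.34, adjusted p = 5.3e-19). In its list of 16 matrix proteases and inhibitors, 4 (25%) were higher and 3 (18.8%) lower, beside 6.28% and 31.5% of all genes. Placental serpins, intracellular protease inhibitors, rose in 8 of 10 cases. Serpinb9b had 396, 425, 353 and 337 TPM in TGC, against 7.49, 14.2 and 8.6 TPM in ExE (log2 difference 5.14 ± 0.44, adjusted p = 1.1e-14), and Serpinb9c, Serpinb9e and Serpinb6b averaged 78.2 ± 9.54, 47.2 ± 5.99 and 51.4 ± 6.56 TPM in TGC, against 0.745 ± 1.13, 0.415 ± 0.72 and 0.358 ± 0.48 TPM in ExE. The Serpinb9 genes are close relatives, and reads could be split between them.

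Il1r2, Il24 and Pfpl stood among the 15 largest increases. Il1r2, the decoy receptor of interleukin 1, had 1153, 1121, 1016 and 1091 TPM in TGC, against 0.0823, 3.04 and 0.267 TPM in ExE (log2 difference 9.27 ± 0.48, adjusted p = 3.6e-23). Il24, a cytokine of the interleukin 10 family, had 338, 395, 376 and 339 TPM in TGC and was listed at 0 in every ExE library. Pfpl, a perforin-like gene, had 694, 627, 514 and 567 TPM in TGC, against 0.207, 0.111 and 0.158 TPM in ExE (log2 difference 9.01 ± 0.17, adjusted p = 5.6e-42).

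**Figure D3:**
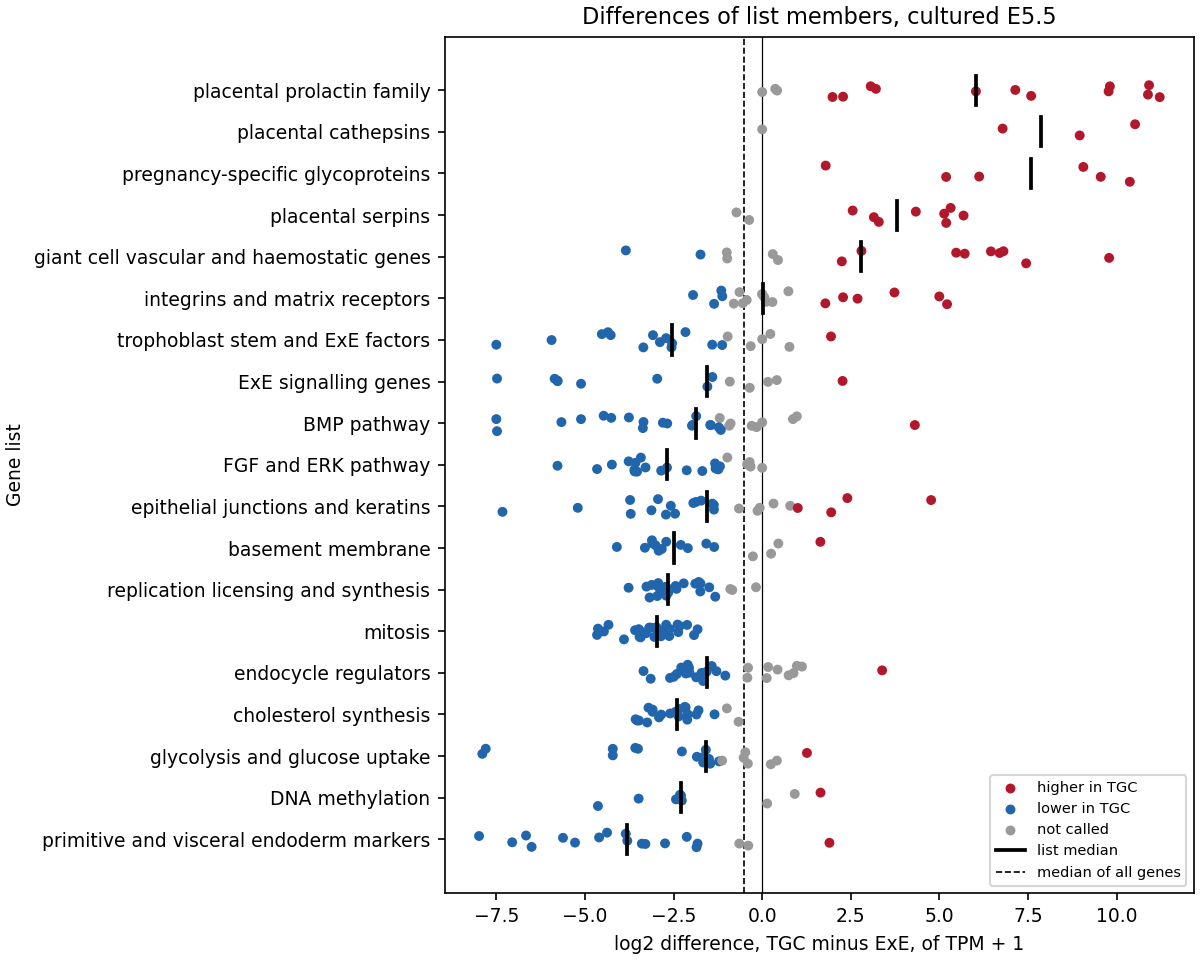
Log2 difference, TGC minus ExE, of each tested member of 19 gene lists, with called members coloured, bars at list medians and a dashed line at the median of all genes, -0.51. Secreted placental families lie right of 0, all 30 mitosis genes lie left of the dashed line, and endocycle regulators and integrins lie on both sides.

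Transcription factors of giant cells did not move as one. Of 14 tested, 4 (28.6%) were higher and 4 (28.6%) lower, beside 6.28% and 31.5% of all genes, and the median was 0.01. The lower share was thus near that of all genes. With either rescaling 5 were higher and 2 lower. Gata2, which activates placental lactogen and proliferin genes, had 260.1, 214, 222 and 215 TPM in TGC, against 6.94, 7.62 and 3.95 TPM in ExE (log2 difference 5.03 ± 0.52, adjusted p = 7.6e-12). Fosl1, an AP-1 subunit of giant cells, had 509, 545, 537 and 574 TPM in TGC, against 23.8, 19 and 21.7 TPM in ExE (log2 difference 4.60 ± 0.29, adjusted p = 1.5e-19). Snai1 and Tfap2a were higher at lower levels, 41.7 ± 4.4 and 13 ± 1.64 TPM in TGC, against 10.8 ± 6.53 and 3.5 ± 1.15 TPM in ExE. Jun, a partner of Fosl1, was lower, with 9.47 ± 1.9 TPM in TGC and 26.6 ± 6.92 TPM in ExE, a call lost with both rescalings (adjusted p 2.9e-05 to 0.44 over the alternatives). Bhlhe40 and the RNA-binding protein gene Zfp36l1 fell, with 0.555 ± 0.423 and 2.17 ± 0.276 TPM in TGC, against 7.9 ± 3.66 and 38 ± 3.73 TPM in ExE. Hand1, the basic helix-loop-helix factor required for giant cell formation, had 217, 234, 248 and 232 TPM in TGC, against 141, 125 and 147 TPM in ExE. Its libraries did not overlap, yet the difference of 0.75 stayed under the minimum size (adjusted p = 0.039). With median-ratio rescaling it was 1.68 and against in vivo ExE 1.83, both called. Ascl2, which opposes giant cell fate and maintains spongiotrophoblast precursors, was higher in TGC, with 18.5, 21.4, 20.9 and 16.6 TPM, against 2.74, 3.36 and 8.05 TPM in ExE (log2 difference 1.94 ± 0.56, adjusted p = 0.0032). The call was lost with a pseudocount of 0.1 TPM (adjusted p = 0.052) and against in vivo ExE (adjusted p = 0.085), and over all alternatives adjusted p ran from 7.6e-07 to 0.085.

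The transcription factors that keep trophoblast stem cells fell. Of 20 stem cell and ExE factors tested, 14 (70%) were lower, beside 31.5% of all genes, and only Ascl2 was higher, with a median of -2.55. With either rescaling or with in vivo ExE in place of cultured ExE, 12 were lower, and 2 and 3 were higher after quantile and median-ratio rescaling. Elf5, which reinforces the stem cell circuit, had 19.8, 15.4, 14 and 17.3 TPM in TGC, against 151, 135 and 156 TPM in ExE (log2 difference -3.08 ± 0.23, adjusted p = 6.5e-17). Eomes, which together with Elf5 holds the stem cell state, had 23, 29.3, 20.6 and 28.3 TPM in TGC, against 113, 127 and 108 TPM in ExE (log2 difference -2.16 ± 0.23, adjusted p = 1.2e-11). Both kept more than 10 TPM in every TGC library, unlike Esrrb, Cdx2 and Lin28a. Esrrb, a nuclear receptor downstream of FGF, had 0, 0, 0.169 and 0 TPM in TGC, against 21.5, 19.3 and 16.9 TPM in ExE (log2 difference -4.28 ± 0.25, adjusted p = 1.0e-20). Cdx2, the caudal homeobox factor of trophectoderm, was low even in ExE, with 0, 0.115, 0 and 0 TPM in TGC, against 12.9, 3.17 and 4.27 TPM in ExE (log2 difference -2.71 ± 0.45, adjusted p = 1.1e-06). The RNA-binding pluripotency gene Lin28a had 0, 0, 0 and 0.0778 TPM in TGC, against 65.3, 61.2 and 58.7 TPM in ExE (log2 difference -5.94 ± 0.33, adjusted p = 1.4e-21). Nr0b1, an orphan nuclear receptor of pluripotent cells, was listed at 0 in every TGC library and had 21.8 ± 11.1 TPM in ExE. Sox2, needed for stem cells of this lineage as well as of the epiblast, had 0.0786 ± 0.119 TPM in TGC and 5.37 ± 0.794 TPM in ExE, and Sall4 had 77.5 ± 6.91 TPM in TGC and 473 ± 171 TPM in ExE. Dppa4, a chromatin gene of pluripotent and early embryonic cells, had 0.859, 1.97, 1.14 and 2.36 TPM in TGC, against 447, 429 and 365 TPM in ExE (log2 difference -7.36 ± 0.29, adjusted p = 7.1e-28). The decreases ranged from -2.16 for Eomes to -5.94 for Lin28a among the factors above 0 in both groups named here, leaving out Id2 and Dppa4, which fell further.

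Signals exchanged between ExE and epiblast were mostly lower in giant cells. Of 13 ExE signalling genes, 8 (61.5%) were lower and 1 (7.69%), Plet1, was higher, beside 31.5% and 6.28% of all genes. Wnt7b had 1.31, 1.11, 0.297 and 1.13 TPM in TGC, against 145, 90.3 and 101 TPM in ExE (log2 difference -5.86 ± 0.53, adjusted p = 8.0e-14). Wnt6 was listed at 0 in every TGC library and had 54.5, 57.9 and 49 TPM in ExE (adjusted p = 4.8e-19). Bmp8b, a partner of Bmp4 in germ cell induction, had 0.269 ± 0.362 TPM in TGC and 42.4 ± 9.39 TPM in ExE (log2 difference -5.11 ± 0.37, adjusted p = 2.9e-17). Of the convertases that cleave Nodal, Pcsk6 (PACE4) was lower, with 3.88, 3.44, 4.34 and 3.56 TPM in TGC, against 38.5, 28.1 and 44.4 TPM in ExE (log2 difference -2.96 ± 0.39, adjusted p = 7.4e-09), whereas Furin had 8.76 ± 2.28 TPM in TGC and 6.27 ± 1.58 TPM in ExE and was not called, though it was against in vivo ExE at 1.67. Plet1, a surface protein of early trophoblast, had 535, 569, 571 and 455 TPM in TGC, against 115, 105 and 108 TPM in ExE (log2 difference 2.27 ± 0.48, adjusted p = 9.4e-05).

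Most genes of the BMP pathway were lower in TGC too. Of 27 BMP pathway genes tested, 18 (66.7%) were lower and 1 (3.7%) higher, beside 31.5% and 6.28% of all genes. With median-ratio rescaling 14 were lower and 3 higher. Id2, an inhibitor of helix-loop-helix factors and a direct BMP target, had 7.47, 3.01, 5.18 and 4.2 TPM in TGC, against 946, 1048 and 1139 TPM in ExE (log2 difference -7.50 ± 0.20, adjusted p = 1.4e-35). Id1 and Id3 had 0.79 ± 0.503 and 2.65 ± 0.631 TPM in TGC, against 87 ± 3.33 and 79.4 ± 9.72 TPM in ExE, and the homeobox target Msx2 was listed at 0 in TGC and had 19.2 ± 7.61 TPM in ExE. Against in vivo ExE the calls of Id3 and Msx2 were lost, with means of 5.3 TPM for Id3 and 1.49 TPM for Msx2 in that group. The inhibitory Smad6, itself induced by BMP, had 0.675 ± 0.426 TPM in TGC and 21.3 ± 3.37 TPM in ExE (log2 difference -3.76 ± 0.48, adjusted p = 2.7e-09), and the transducer Smad1 had 0.179 ± 0.191 TPM in TGC and 7.03 ± 3.26 TPM in ExE. Smad7 had 149 ± 12.5 TPM in TGC and 81.5 ± 11 TPM in ExE and was not called, though it was against in vivo ExE at 1.43. Gdf15, a stress-responsive ligand of the same superfamily, was the single higher member, with 50.9 ± 8.83 TPM in TGC and 2.18 ± 2.09 TPM in ExE (log2 difference 4.31 ± 0.52, adjusted p = 7.2e-10). In the Nodal and activin list 7 of 16 (43.8%) were lower, beside 31.5% of all genes, among them the co-receptor Tdgf1 (0.0379 ± 0.0757 TPM in TGC and 9.01 ± 3.07 TPM in ExE) and the cofactor Foxh1 (0.012 ± 0.0241 TPM in TGC and 12.9 ± 2.54 TPM in ExE), whose difference from in vivo ExE, -0.92, was under the minimum size. Fstl3, which binds activin, was the one higher member (87 ± 2.37 TPM in TGC and 13.5 ± 2.47 TPM in ExE), with a call lost at a pseudocount of 0.1 TPM (adjusted p 1.9e-08 to 0.052 over the alternatives). With in vivo ExE in place of cultured ExE, 3 Nodal pathway genes (18.8%) were lower and 2 (12.5%) higher, near the 23.8% and 10.1% of all genes.

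FGF signalling genes were lower in 18 of 23 cases (78.3%), beside 31.5% of all genes, and higher in none, with a median of -2.69. After median-ratio rescaling 13 were lower, and against in vivo ExE 11 were lower and 1 higher. Fgfr2, the receptor through which FGF4 sustains trophoblast stem cells, had 0.0378, 0.0326, 0.0595 and 0 TPM in TGC, against 64.5, 57.6 and 46.2 TPM in ExE (log2 difference -5.78 ± 0.41, adjusted p = 1.6e-17). The feedback targets Dusp6 and Spry1, whose transcription follows ERK activity, had 4.64 ± 0.764 and 0.281 ± 0.482 TPM in TGC, against 141 ± 16.6 and 22.9 ± 7.06 TPM in ExE (log2 difference -4.66 ± 0.20, adjusted p = 1.8e-26 for Dusp6). Spry2 stayed abundant, with 689, 594, 587 and 581 TPM in TGC, against 1217, 1625 and 1383 TPM in ExE, and its call was lost with median-ratio rescaling, with a pseudocount of 0.1 TPM and against in vivo ExE (adjusted p 9.1e-08 to 0.71 over the alternatives).

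Genes of cell division fell as a block. Every one of the 30 mitosis genes tested was lower in TGC, beside a share of 31.5% of all genes, with a median of -2.97. Of the same genes, 30 were lower after quantile normalization, 29 after median-ratio rescaling and 28 against in vivo ExE, and none was higher. Their summed level was 760.8 ± 20 TPM in TGC and 5247 ± 83.8 TPM in ExE. Kif11, the motor that separates spindle poles, had 5.46, 3.66, 3.62 and 2.87 TPM in TGC, against 117, 131 and 115 TPM in ExE (log2 difference -4.66 ± 0.33, adjusted p = 2.4e-17). The mitotic kinases Plk1 and Aurkb had 12 ± 3.82 and 4.54 ± 1.14 TPM in TGC, against 312 ± 46.8 and 119.8 ± 13 TPM in ExE. Kif20a, a motor of cytokinesis, had 4.93 ± 2.07 TPM in TGC and 114 ± 6.88 TPM in ExE. The smallest decreases in the list were those of the mitotic kinase Cdk1, with 22.7, 22.6, 24.2 and 23.4 TPM in TGC, against 90.02, 83.3 and 99.9 TPM in ExE (log2 difference -1.92 ± 0.18, adjusted p = 4.9e-13), and of the centromeric histone Cenpa, with 164, 169, 163 and 169 TPM in TGC, against 568, 605 and 602 TPM in ExE (log2 difference -1.82 ± 0.08, adjusted p = 4.5e-26). Cenpa was the gene whose call was lost with median-ratio rescaling, at -0.89.

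Replication genes, which endocycles still need, were lower in 22 of 25 cases (88%), beside 31.5% of all genes. Their median was -2.65, and 17 were lower after median-ratio rescaling. The helicase subunit Mcm2 had 30.7, 21.7, 25.6 and 29.97 TPM in TGC, against 299, 239 and 263 TPM in ExE (log2 difference -3.26 ± 0.24, adjusted p = 5.7e-17), and Mcm10 and the origin subunit Orc1 had 6.52 ± 2.29 and 5.0 ± 1.01 TPM in TGC, against 98.7 ± 14.2 and 52.8 ± 3.89 TPM in ExE. The sliding clamp Pcna fell less, with 114, 129, 129 and 107 TPM in TGC, against 425, 382 and 402 TPM in ExE (log2 difference -1.75 ± 0.10, adjusted p = 1.8e-21), and at -0.81 was under the minimum size after rescaling. Cdt1, which loads the helicase at origins, had 56.1, 71.2, 86.4 and 64.1 TPM in TGC, against 166, 117 and 98.2 TPM in ExE and was not called (log2 difference -0.84 ± 0.22, adjusted p = 0.001). Without the third ExE library its difference was -1.01, past the threshold. Geminin (Gmnn), which blocks Cdt1, had 78.9, 65.9, 60.3 and 53.9 TPM in TGC, against 214, 246 and 249.8 TPM in ExE (log2 difference -1.86 ± 0.17, adjusted p = 2.9e-13), and -0.94 after rescaling, just under the minimum size.

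Among 27 regulators of the endocycle, 5 were higher and 11 lower after median-ratio rescaling. As deposited, 1 (3.7%) was higher and 17 (63%) were lower, beside 6.28% and 31.5% of all genes. The higher one was Cdkn1a (p21), an inhibitor of cyclin-dependent kinases that giant cells use, with 548, 626, 669.6 and 643 TPM in TGC, against 50.5, 60.3 and 65.5 TPM in ExE (log2 difference 3.39 ± 0.43, adjusted p = 2.3e-09). Cdkn1c (p57), the inhibitor tied to the onset of endocycles, had 46.4, 41.3, 33.7 and 48.1 TPM in TGC, against 38.5, 24.1 and 16 TPM in ExE, and its groups overlapped. It was not called (log2 difference 0.75 ± 0.45, adjusted p = 0.18), and with median-ratio rescaling it was, at 1.65. The S-phase cyclin Ccne1 had 60.9, 69.5, 63.4 and 66.1 TPM in TGC, against 324, 266 and 234 TPM in ExE (log2 difference -2.05 ± 0.19, adjusted p = 1.1e-13). Ccne2, the other cyclin E, had 17.7 ± 0.945 TPM in TGC and 37.5 ± 3.41 TPM in ExE, a difference of -1.04 that rescaling reduced to -0.14 and that was -0.98 without the second ExE library. Their kinase Cdk2 had 34 ± 4.77 TPM in TGC and 184 ± 19 TPM in ExE, the cyclin Ccnd3 had 18.7 ± 4.57 TPM in TGC and 171 ± 20.2 TPM in ExE, and Fbxo5 (Emi1), an inhibitor of the anaphase-promoting complex, had 10.2 ± 2.08 TPM in TGC and 112 ± 16.2 TPM in ExE, all lower in TGC.

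Slc2a3, Ldhb, Ak1, Inpp1 and Cyp26a1 stood among the 15 largest decreases under the naming rule. Slc2a3, the neuronal and trophoblast glucose transporter GLUT3, had 0.317, 1.34, 0.819 and 1.4 TPM in TGC, against 506, 441 and 423 TPM in ExE (log2 difference -7.90 ± 0.28, adjusted p = 2.0e-30). Ldhb, a lactate dehydrogenase subunit, had 0, 0, 0.185 and 1.42 TPM in TGC, against 268, 307 and 294 TPM in ExE (log2 difference -7.80 ± 0.65, adjusted p = 4.2e-15). The kinases Hk1 and Pdk1, at the entry and the exit of glycolysis, had 0.204 ± 0.171 and 1.1 ± 0.529 TPM in TGC, against 22.3 ± 8.93 and 37.6 ± 8.19 TPM in ExE. In all, 14 of 21 glycolysis genes (66.7%) were lower, beside 31.5% of all genes, and median-ratio rescaling left 7 lower and 2 higher. As deposited, 1 was higher, the phosphofructokinase Pfkp (108 ± 5.34 TPM in TGC and 44.4 ± 3.58 TPM in ExE), a call lost against in vivo ExE (adjusted p = 0.12). Gapdh, with 405 ± 28.4 TPM in TGC and 582 ± 37.4 TPM in ExE, was not called. Ak1, adenylate kinase, was listed at 0 in every TGC library and had 295, 273 and 262 TPM in ExE. Inpp1, an inositol phosphatase, was likewise listed at 0 in TGC and had 137, 124 and 153 TPM in ExE. Cyp26a1, which degrades retinoic acid, had the largest decrease of any gene above 0 in both groups under the naming rule, with 2.49, 0.554, 0.723 and 0.274 TPM in TGC, against 864, 784 and 785 TPM in ExE (log2 difference -8.77 ± 0.30, adjusted p = 6.3e-31).

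Cholesterol synthesis was lower in 20 of 22 genes and higher in none, with 17 lower after median-ratio rescaling and also 17 against in vivo ExE. Sqle, squalene epoxidase, had 17.4, 18.2, 18.2 and 17.5 TPM in TGC, against 228, 181 and 221 TPM in ExE (log2 difference -3.48 ± 0.32, adjusted p = 1.5e-13), and Lss, which acts after it, had 3.31 ± 1.37 TPM in TGC, against 48.1 ± 15 TPM in ExE. Giant cells make steroids from cholesterol, and Cyp11a1, the side-chain cleavage enzyme that opens this route, had 43.4, 27.9, 34.8 and 27.8 TPM in TGC, against 2.2, 0 and 0 TPM in ExE (log2 difference 4.52 ± 0.45, adjusted p = 2.3e-12). Fdxr, the reductase that feeds it electrons, was higher at 41.3 ± 9.95 TPM in TGC against 6.51 ± 3.81 TPM in ExE (log2 difference 2.60 ± 0.62, adjusted p = 4.3e-04), while Scarb1, a receptor for lipoprotein cholesterol, was lower at 4.55 ± 1.43 TPM in TGC against 51.4 ± 17.1 TPM in ExE (log2 difference -3.22 ± 0.48, adjusted p = 1.3e-07). Of 15 steroid synthesis genes, 2 (13.3%) were higher and 3 (20%) lower, beside 6.28% and 31.5% of all genes. After median-ratio rescaling 6 were higher and 2 lower. Counts of lysosomal genes depended on the scaling, as did those of all genes, with 1 higher and 15 lower as deposited, 6 and 5 after quantile normalization and 11 and 5 after median-ratio rescaling. In that list the protease Ctsb was higher in TGC (425 ± 7.45 TPM in TGC against 183 ± 15 TPM in ExE) and the protease Ctsh lower (0.836 ± 0.833 TPM in TGC against 199 ± 41.4 TPM in ExE), each with either scaling.

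Epithelial genes went both ways. Krt19 had 569.9, 654, 714 and 688 TPM in TGC, against 31.5, 14.3 and 26.9 TPM in ExE (log2 difference 4.77 ± 0.49, adjusted p = 7.7e-12), and Krt7 had 194, 231, 245 and 212 TPM in TGC, against 52.5, 41.9 and 30.6 TPM in ExE (log2 difference 2.40 ± 0.49, adjusted p = 5.1e-05). E-cadherin, Cdh1, had 2.65, 3.28, 1.06 and 1.46 TPM in TGC, against 112, 95.5 and 121 TPM in ExE (log2 difference -5.20 ± 0.27, adjusted p = 3.4e-23). The tight junction gene Cldn6 had 2.76, 1.11, 1.16 and 1.61 TPM in TGC, against 436, 408 and 402 TPM in ExE (log2 difference -7.33 ± 0.13, adjusted p = 7.9e-43), and the adhesion molecule Epcam had 39.4 ± 4.67 TPM in TGC and 531 ± 4.06 TPM in ExE (log2 difference -3.73 ± 0.12, adjusted p = 3.1e-32). Across the list 4 of 24 genes (16.7%) were higher, 3 of them keratins and the other a junction gene, and 15 (62.5%) lower. Of all genes, 6.28% were higher and 31.5% lower.

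Of 27 imprinted genes with placental roles, 3 were higher in TGC and 11 lower, shares of 11.1% and 40.7% beside 6.28% and 31.5% of all genes. H19, a maternally expressed noncoding RNA, had 3405, 3162, 3273 and 3719.8 TPM in TGC, against 1243, 1169 and 1186 TPM in ExE (log2 difference 1.496 ± 0.30, adjusted p = 4.2e-05), whereas its neighbour Igf2 had 55.4 ± 4.74 TPM in TGC and 44 ± 7.24 TPM in ExE and was not called. Mest, a paternally expressed gene, had 0.455, 1.46, 2.99 and 2.54 TPM in TGC, against 198, 188 and 214 TPM in ExE (log2 difference -6.23 ± 0.47, adjusted p = 1.1e-16). Grb10, a growth inhibitor, and Slc38a4, an amino acid transporter, were lower at 2.17 ± 0.285 and 8.71 ± 0.549 TPM in TGC, against 61.3 ± 6.87 and 139.5 ± 9.49 TPM in ExE. DNA methylation genes were lower in 6 of 9 cases: the methyltransferase Dnmt3b had 5.46, 4.98, 7.43 and 6.73 TPM in TGC, against 164, 173 and 188 TPM in ExE (log2 difference -4.63 ± 0.20, adjusted p = 6.2e-26), its cofactor Dnmt3l had 0.129 ± 0.257 TPM in TGC and 11.9 ± 4.18 TPM in ExE, and Uhrf1, which guides maintenance methylation, had 23.7 ± 2.05 TPM in TGC and 123 ± 19.98 TPM in ExE. The dioxygenase Tet2 was higher (12.7 ± 1.76 TPM in TGC and 3.42 ± 1.01 TPM in ExE; log2 difference 1.65 ± 0.28, adjusted p = 2.4e-06). Polycomb and H3K4 methylation genes, regulators of bivalent chromatin, were lower in 17 of 30 cases and higher in 1, but in 6 and 2 after median-ratio rescaling. Jarid2 and Eed, of Polycomb repressive complex 2, had 8.65 ± 1.61 and 19 ± 3.27 TPM in TGC, against 86.7 ± 10.9 and 129 ± 4.9 TPM in ExE, both lower. The catalytic subunit Ezh2 had 91.3 ± 10.5 TPM in TGC and 152 ± 7.21 TPM in ExE and was not called, though it was against in vivo ExE at -1.28.

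Transcripts of other tissues differed between the groups as well. The cultured ExE libraries held endoderm transcripts. Summed over 19 markers of primitive and visceral endoderm, the levels were 352.3 to 414 TPM in TGC, against 2577 to 2948 TPM in cultured ExE, with 914.1 to 978.3 TPM in in vivo ExE and 20320 to 24510 TPM in cultured VE. Single genes made up much of these sums outside VE. Srgn averaged 366 TPM in TGC, and Apoe averaged 1512 TPM in cultured ExE and 917 TPM in in vivo ExE. Of the 19 markers, 16 (84.2%) were lower in TGC, beside 31.5% of all genes, and 1, Srgn, was higher (366 ± 23.2 TPM in TGC and 97.8 ± 12.8 TPM in ExE). Against in vivo ExE 4 (21.1%) were lower and 2 (10.5%) higher, near the 23.8% and 10.1% of all genes. Ttr, the transthyretin of VE, was listed at 0 in every TGC library and had 90.8, 79.7 and 101 TPM in cultured ExE, 0.315 and 0.836 TPM in in vivo ExE and 599 ± 21.2 TPM in VE. Spink1, a protease inhibitor, had 0, 0.469, 1.3 and 2.5 TPM in TGC, against 593, 742 and 725 TPM in cultured ExE, 0.983 and 12.4 TPM in in vivo ExE and 5509.6 ± 571 TPM in VE. Dab2, an endocytic adaptor of VE, and Pga5, a pepsinogen, had 1.1 ± 0.724 and 0.0738 ± 0.148 TPM in TGC, against 513 ± 46 and 142 ± 19.7 TPM in cultured ExE and means of 3.65 and 0 TPM in in vivo ExE. The endoderm factors Gata4 and Sox17 had 0.0325 ± 0.065 and 0.0197 ± 0.0395 TPM in TGC, against 25 ± 9.24 and 14.4 ± 5.41 TPM in cultured ExE. Apoe differs from these, since at 15 ± 6.96 TPM in TGC and 1512 ± 138 TPM in cultured ExE it also averaged 917 TPM in in vivo ExE. Spink1, Dab2, Pga5 and Gpc3 (0.30 ± 0.278 TPM in TGC, 152 ± 18.4 TPM in cultured ExE, a mean of 3.0 TPM in in vivo ExE) stood among the 15 largest decreases under the naming rule. Among the 4909 lower genes, 564 (11.5%) were higher in cultured VE than in cultured ExE, a share near the 10.3% of all genes tested.

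**Figure D4:**
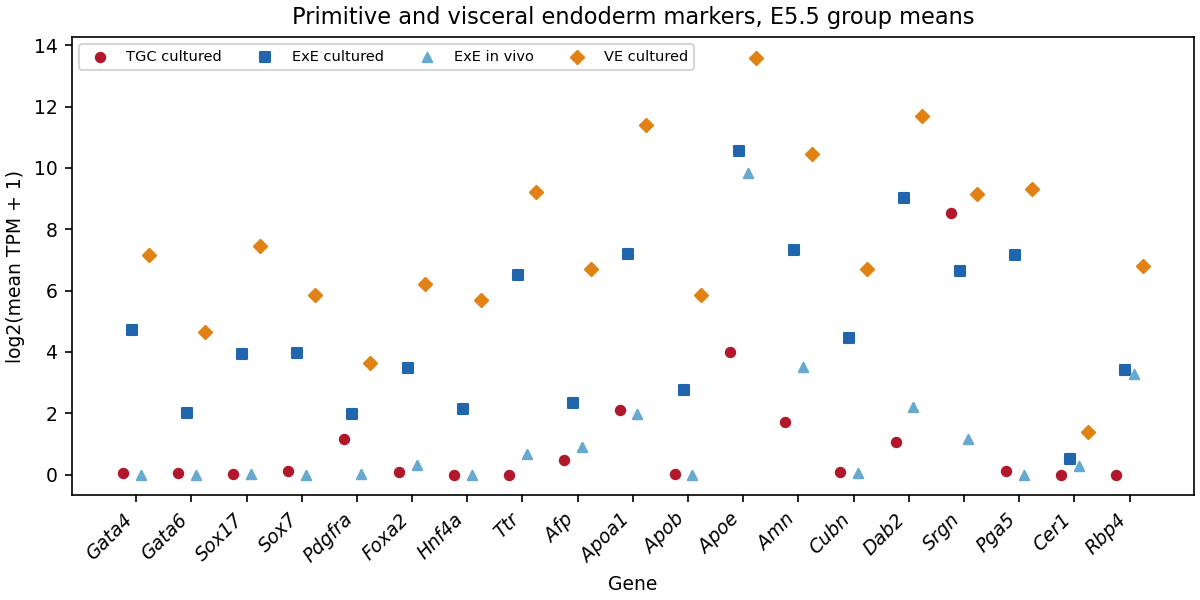
Mean level of 19 markers of primitive and visceral endoderm, as log2(mean TPM + 1), in cultured TGC, cultured ExE, in vivo ExE and cultured VE of E5.5. Cultured ExE lies between in vivo ExE and VE for most markers, and TGC lies near or below in vivo ExE for most of them and above both ExE groups for Srgn.

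Basement membrane genes moved with these markers, with 12 of 16 (75%) lower in TGC against cultured ExE, beside 31.5% of all genes. Set against in vivo ExE, 5 (31.2%) were lower, beside 23.8% of all genes. Col4a1 and Lamb1, which encode collagen IV and laminin chains, had 0.105 ± 0.137 and 0.446 ± 0.454 TPM in TGC, against 18.1 ± 3.81 and 13.1 ± 3.16 TPM in cultured ExE, and were listed at 0 in both in vivo ExE libraries. Epiblast markers summed to 984.1 to 1106 TPM in TGC, against 1609 to 1716 TPM in ExE, 930.8 to 984.3 TPM in cultured VE and 4403 to 4533 TPM in cultured epiblast. Of 13, 7 (53.8%) were lower in TGC, beside 31.5% of all genes, and 1, Dppa5a, was higher. Against in vivo ExE 4 (30.8%) were lower and 0 higher, beside 23.8% and 10.1% of all genes. Among the lower ones, Pou3f1 had 0.412 ± 0.406 TPM in TGC and 119 ± 10.04 TPM in ExE, and averaged 217 TPM in in vivo ExE. Uterine stroma markers summed to 65 to 70.76 TPM in TGC, against 7.598 to 10.63 TPM in ExE, almost all from the filament gene Des (70.6, 67.9, 64.9 and 67.6 TPM in TGC, against 3.43, 4.22 and 6.93 TPM in ExE). Parietal endoderm markers summed to 841.1 to 924.6 TPM in TGC, against 404.1 to 457.1 TPM in ExE, with 3 of 16 higher and 8 lower. The 3 higher ones were Krt19, Thbd and Snai1, described above among other lists, and they made up most of the TGC sum. Of 4 blood and immune markers tested, 1, Cd68, was higher, and the list summed to 74.32 to 105.3 TPM in TGC, against 19.83 to 23.8 TPM in ExE. The part of transcripts from other tissues in the differences was not tested. In in vivo ExE, the trophoblast genes Bmp4, Id2 and Elf5 averaged 281, 1523 and 43.5 TPM, and the giant cell genes Prl7a1 and Cts7 averaged 1.19 and 0.917 TPM.

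Stress and hypoxia lists went both ways, with lower shares of 35.3% to 42.1% that lay near the 31.5% of all genes. Of 17 genes of the hypoxia response, 3 were higher in TGC and 6 lower, and of 19 immediate early and heat shock genes 3 were higher and 7 lower. Targets of p53 were higher in 2 and lower in 8 of 19 cases against cultured ExE, but higher in 10 (52.6%) and lower in 0 against in vivo ExE, where 10.1% of all genes were higher and 23.8% lower. Cdkn1a, the p53 target described above, averaged 4.93 TPM in in vivo ExE.

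The same tissues were closer to each other at E4.75. There 330 genes (2.12%) were higher in TGC and 348 (2.24%) lower, with a median difference of -0.15. A contrast of contrasts in the same fit tested the E5.5 difference minus the E4.75 difference, and the difference was larger for 581 genes (3.73%) and smaller, that is, more negative, for 2504 (16.1%). Its median over all genes was -0.37, and median-ratio rescaling gave 1195 and 1082 genes. The E4.75 libraries are not stated to be cultured, so age and culture cannot be told apart here. They also held transcripts from marker lists of other tissues. Epiblast markers summed to 7075 to 7300 TPM in TGC and 7705 to 7958 TPM in ExE of E4.75. Primitive and visceral endoderm markers summed to 632.5 to 662.2 and 2115 to 2248 TPM. Lower in TGC were 8 of 13 and 13 of 19 of these markers, beside 2.24% of all genes. Their part in the contrast of contrasts was not tested.

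The giant cell hormones were already present at E4.75 and then diverged. Prl3d1 had 21954, 18586 and 22237 TPM in TGC of E4.75, against 1613, 1461 and 1429 TPM in ExE of E4.75, so libraries of both tissues held it, at unequal levels (log2 difference at E4.75 of 3.80 ± 0.85, adjusted p = 0.0013). Which cells of the ExE pools carried it was not tested. The E5.5 libraries lay above these in TGC and below them in ExE, and the difference of differences was 7.42 ± 1.16, adjusted p = 1.3e-06. Prl7a1 averaged 441 ± 36.8 TPM in TGC and 50.2 ± 5.72 TPM in ExE at E4.75 (difference of differences 6.70 ± 0.64, adjusted p = 2.9e-12). Plac1 averaged 1058 ± 71.1 TPM in TGC and 432 ± 8.71 TPM in ExE at E4.75 (difference of differences 6.94 ± 0.71, adjusted p = 2.3e-11). Cts7 differed by more at E4.75, with 1163, 989 and 1126 TPM in TGC, against 7.88, 7.49 and 4.28 TPM in ExE at E4.75 (log2 difference at E4.75 of 7.21 ± 0.30, adjusted p = 3.4e-26). Of 15 prolactins, 13 were already higher in TGC at E4.75, and the difference was larger at E5.5 for 11 and smaller for 2.

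Several genes of the ExE did not differ by a call between the tissues at E4.75. Bmp4 had 35.9, 38.6 and 37.6 TPM in TGC, against 65.9, 65.3 and 72.4 TPM in ExE at E4.75 (log2 difference at E4.75 of -0.84 ± 0.61, adjusted p = 0.66), and the E5.5 libraries lay below these in TGC and above them in ExE (difference of differences -6.64 ± 0.84, adjusted p = 9.4e-09). Id2 had 656, 567 and 656 TPM in TGC of E4.75, against 1214, 1119 and 1082 TPM in ExE of E4.75. Its ExE level was of the same order at the 2 ages, and its TGC level was not. Slc2a3 had 46.4, 39.2 and 40.6 TPM in TGC, against 63, 56.4 and 62.5 TPM in ExE at E4.75, and gave the most negative change of any gene under the naming rule (-7.38 ± 0.40, adjusted p = 5.6e-21). Elf5 and Eomes were not called at E4.75 either, with 152 ± 9.6 and 77.1 ± 7.1 TPM in TGC, against 198 ± 12.5 and 100.2 ± 7.98 TPM in ExE, and their differences of differences were -2.70 and -1.79. Ascl2 stood in the opposite order at E4.75, with 69.6, 81.2 and 71.4 TPM in TGC, against 112, 129 and 127 TPM in ExE, and every E5.5 library of either tissue lay below these (difference of differences 2.66 ± 0.82, adjusted p = 0.012).

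**Figure D5:**
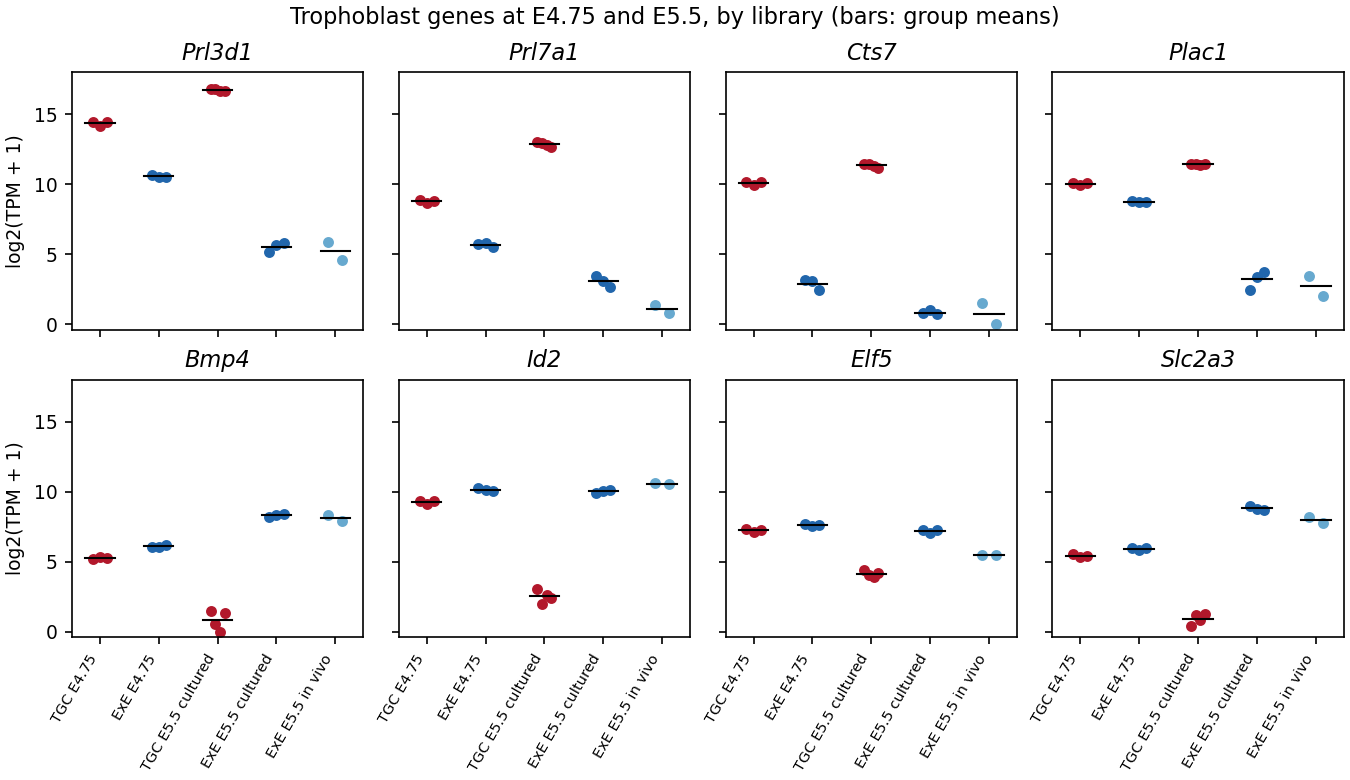
Level of 8 genes in each library, as log2(TPM + 1), in TGC and ExE of E4.75, cultured TGC and ExE of E5.5, and in vivo ExE of E5.5, with bars at group means. The tissues lie closer together at E4.75 than at E5.5 for Plac1, Bmp4, Id2, Elf5 and Slc2a3, and Cts7 is already apart at E4.75.

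Division genes showed the same course. Of 30 mitosis genes, 2 were lower in TGC at E4.75, and the difference was more negative at E5.5 for 29. Their summed level was 3333 ± 122 TPM in TGC and 5014 ± 32.8 TPM in ExE at E4.75, against the 760.8 ± 20 TPM in TGC and 5247 ± 83.8 TPM in ExE given above for E5.5. Of 25 replication genes, 2 were lower in TGC at E4.75 and 18 had a more negative difference at E5.5. Geminin (Gmnn) averaged 250.02 ± 13.1 TPM in TGC and 283 ± 11.8 TPM in ExE at E4.75 (difference of differences -1.68 ± 0.26, adjusted p = 7.2e-07), and Cdkn1a averaged 136 ± 4.92 TPM in TGC and 91 ± 4.12 TPM in ExE.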

How the data were processed

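The authors' deposited table holds TPM per gene for 67 Smart-seq2 libraries of wild-type embryos (polyA RNA). Alignment and quantification tools named in the submitters' processing notes are Cufflinks, StringTie 2.2.1 and HISAT2 2.2.1, with mm10 as the build; their roles and settings are not given in the sources used here. TPM keeps no depth, so no counting error is given, and a value of 0 can be a failed estimate. Columns were matched to samples by title. Of 25006 genes, 15567 reached 1 TPM in 3 or more libraries and were fitted as log2(TPM + 1) with limma 3.58.1 (R 4.3.3): 23 group means, moderated variances with a mean trend, Benjamini-Hochberg adjustment. The spread of each gene is shared by all groups. The script was tested on simulated data.

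Gene lists (35) and members were chosen with earlier results of these data known; lists are described by counts and medians beside those of all genes. Named genes follow a fixed rule: 12 core genes, the 5 largest called members of a list in each direction, up to 2 abundant uncalled members per list, the 15 largest non-overlapping differences per direction, the 10 largest differences of differences per direction, and further list members by their values. Some genes that the rule names are not reported here. Alternatives varied the pseudocount, the filter, the scaling, weights, the libraries fitted, a replicate block and each left-out library. Gene positions are from GENCODE vM21 (GRCm38), and start regions from RefSeq.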

Additional observations from a re-analysis of the deposited data

Results flagged for a closer look

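Differences between TGC and ExE that themselves differed between E5.5 and E4.75 (contrast of contrasts in limma, adjusted p under 0.05) are listed with their size on the log2(TPM + 1) scale. A larger difference at E5.5 was found for Prl3d1 (7.42), Prl2a1 (7.28), Prl3d3 (7.25), Prl3d2 (7.07), Plac1 (6.94), Prl7a1 (6.70), Psg22 (5.92), Il1r2 (5.86), Cts7 (3.31), Ascl2 (2.66) and Krt8 (1.12). For Plau (7.54) and Adm (6.44), listed at 0 in ExE of E5.5, the size depends on the pseudocount and is no bound. A more negative difference was found for Slc2a3 (-7.38), Cyp26a1 (-7.01), Ldhb (-6.64), Id2 (-6.64), Bmp4 (-6.64), Duoxa2 (-6.25), Dppa4 (-6.20), Dab2 (-5.87), Esrrb (-3.42), Elf5 (-2.70), Cdx2 (-2.59), Eomes (-1.79) and Gmnn (-1.68). For Ak1 (-6.55), listed at 0 in TGC of E5.5, the size again depends on the pseudocount. Hand1 and Cdkn1c showed no called change (0.35 ± 0.45, adjusted p = 0.68 and 0.11 ± 0.67, adjusted p = 0.97).

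Among 156 genes tested for 1 TGC library apart from the other 3, 15 were flagged. The usual rate of 1 chance flag in 20 holds for normally spread values and not here. A gene at 0 in 3 TGC libraries, such as Cdx2, Esrrb or Lin28a, is flagged whatever its level in the fourth. Higher libraries at appreciable levels were Gata2 (260.1 TPM) and Spry2 (689 TPM) in replicate 1 and Ctsll3 (123 TPM) in replicate 2, and Krt18 was lowest in replicate 1 (4235 TPM). In the other cases a transcript near 0 in 3 libraries was higher in the fourth: Spry1 (1.00 TPM) and Esrrb (0.169 TPM) in replicate 3, Ldhb (1.42 TPM), Pga5 (0.295 TPM), Tdgf1 (0.151 TPM) and Lin28a (0.0778 TPM) in replicate 4, Cdx2 (0.115 TPM) and Foxh1 (0.0481 TPM) in replicate 2, and Dnmt3l (0.515 TPM), Gata4 (0.130 TPM) and Sox17 (0.0790 TPM) in replicate 1.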

How the results depend on the processing

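Scaling moved the counts most. Against 977 genes higher and 4909 lower in TGC, quantile normalization gave 2048 and 2197 and median-ratio rescaling 2097 and 2262; the size factors of the median-ratio rescaling were 0.7419 to 0.7802 in TGC and 1.407 to 1.498 in ExE. Against in vivo ExE, chosen after seeing the data, 1577 were higher and 3709 lower. Against cultured ExE, 826 and 4345 remained when genes higher in cultured VE than in cultured ExE were left out, also chosen later. For the E5.5 minus E4.75 difference, 581 genes were larger and 2504 smaller, against 1130 and 1185 with quantile normalization, 1195 and 1082 with median-ratio rescaling and 874 and 3968 with array weights. The cause of the last was not tested. Leaving out each library gave 935 to 969 genes higher, 4554 to 4817 lower, 527 to 564 with a larger and 2113 to 2406 with a smaller difference. A fit of the groups compared only gave 933 higher, 4830 lower, 796 larger and 3672 smaller. Adding a replicate block to that fit gave 790 higher, 3984 lower, 778 larger and 3530 smaller. Same-numbered libraries did not deviate together (r = 0.001, 0.008 and 0.001), and no ExE library correlated best with the TGC library of its own number. With so few libraries, these correlations cannot decide whether same-numbered libraries share an embryo or a batch.

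Of 143 called genes named, 135 kept their call in every alternative other than in vivo ExE and 8 did not (Ascl2, Jun, Spry2, Fstl3, Cenpa, Pcna, Gmnn and Ccne2). Of 13 uncalled genes named, 9 were called in at least 1. Median-ratio rescaling turned the direction of Phlda2 (0.68), Cdt1 (0.0818), Gapdh (0.41) and Ezh2 (0.19), and quantile normalization that of Phlda2 (0.0673); of these only Gapdh had an adjusted p under 0.05. Against in vivo ExE, 10 named genes kept their direction and lost their call (Ascl2, Flt1, Itgav, Id3, Msx2, Spry2, Foxh1, Pfkp, Ttr and Sox17). Of these, Ascl2 and Spry2 are also among the 8 above. In the same comparison 6 uncalled genes were called (Hand1, Krt18, Phlda2, Furin, Smad7 and Ezh2). The direction turned, without a call, for Col4a1 (0.14), Lamb1 (0.48), Pga5 (0.0933) and Gata4 (0.0441). TPM hold no depth, so values near 0 cannot be told from absence.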
